A study of Jaculus jaculus with 29 samples.

Results

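The 9 homeostatic microglia genes described here are Csf1r, Cx3cr1, P2ry12, Tmem119, Aif1, Itgam, C1qa, C1qb and C1qc, of 29170 genes in the count table of a study of the supraoptic nucleus of the lesser Egyptian jerboa (Jaculus jaculus). They were found by symbol, and 6 of them carried it in the authors' deposited table for Dehydrated against Control. P2ry12, Tmem119 and C1qb stood there without a symbol and were placed by position against RefSeq's genes on the mJacJac1 assembly.

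Polyadenylated RNA was sequenced from 12 bilateral punches per animal, taken with a 1 mm core from frozen coronal sections of 100 µm. Dehydrated animals (10 libraries, 6 labelled female and 4 male) went 11 days under water restriction. Rehydrated animals (9 libraries, 4 female and 5 male) went 7 days under restriction and then drank freely for 3 days, and Control animals (10 libraries, 5 female and 5 male) always had water. Housing was single throughout, at 25 °C and with 12 hours of light a day.

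Microglia are the resident macrophages of the brain. At rest they survey the tissue with moving processes, depend on signals through Csf1r, and carry receptors for nucleotides and for neuronal fractalkine. They are also the main source of C1q, the recognition molecule of the classical complement pathway, in rodent brain. In the supraoptic nucleus they lie among the magnocellular neurons that make vasopressin and oxytocin. Several of the 9 genes, among them Csf1r, Cx3cr1, Aif1, Itgam and the C1q genes, are also expressed by macrophages of the brain's borders and by blood monocytes.

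The genes lay on 5 chromosomes of the mJacJac1 assembly. Csf1r was annotated at 33279589 to 33308001 on the plus strand of chromosome 13 and Tmem119 at 13245578 to 13252936 on its minus strand. Cx3cr1 stood at 4983441 to 5009225 on the plus strand of chromosome 17, and Aif1 at 320507 to 323956 on the minus strand of chromosome 8. On chromosome 12, Itgam spanned 62210128 to 62279028 on the plus strand and P2ry12 spanned 109105078 to 109113360 on the minus strand. The C1q genes were neighbours on the plus strand of chromosome 5, in the order C1qa (55325261 to 55328776), C1qc (55331588 to 55334643) and C1qb (55339487 to 55344997). The gene taken as P2ry12 is less certain than the others: a share of 0.999 of it lay inside the RefSeq span of P2ry12, but it covered only 0.192 of that span.

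Counting was not told to use strand. P2ry12 lies within Med12l, which runs on the opposite strand, with 0 shared exon bases, and Csf1r shares 176 exon bases with Hmgxb3 on the opposite strand. For Csf1r, reads of the shared bases cannot be assigned to either gene. For P2ry12, any reads of Med12l introns that fall on its exons would be counted as P2ry12, and their number was not measured.

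Total counts per library ran from 10797577 to 18856620. All 9 genes passed the filter on low counts that left 17558 genes, and none was at 0 in any library: their counts ran from 59 for Tmem119 in Dehydrated F03 to 1794 for Csf1r in Rehydrated M01. Levels are given in CPM, the count as a share of the library's total after scaling by the trimmed mean of M-values (TMM). Punches hold neurons and other glia as well, so fewer microglia and less RNA per microglial cell cannot be told apart. The p-values measure the spread between libraries, each of which the labels number as a sample of its own. Control M01 had the lowest total, 10797577, and stood apart from the other 9 Control libraries in several of the 9 genes, so the results on the 9 genes are given with and without it. The authors' deposited tables hold no column under its code.

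In Control M01 the 3 C1q genes and Aif1 were the highest of all 29 libraries. C1qa stood at 149.6 CPM there, against 22.8 ± 5.18 CPM in the other Control libraries (SD, n = 9), a 6.57-fold difference. C1qb stood at 108.0 CPM, against 15.02 ± 3.85 CPM, and C1qc at 100.2 CPM, against 14.1 ± 4.63 CPM, which were 7.19-fold and 7.11-fold. Aif1 stood at 36.03 CPM, against 7.85 ± 2.41 CPM, 4.59-fold. These 4 genes lay at or above the percentile of 99.0 among all tested genes for their deviation in Control M01.

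The other 5 genes did not stand out to that degree in the same library. Csf1r was 1.10-fold, P2ry12 1.23-fold, Itgam 1.33-fold, Tmem119 1.49-fold and Cx3cr1 1.62-fold of the mean of the other Control libraries. Of all tested genes, 57.8% deviated less far upward than Csf1r, 65.4% than P2ry12, 72.7% than Itgam, 82.7% than Tmem119 and 86.9% than Cx3cr1. Of 27 tested other homeostatic microglia genes, 23 were higher in Control M01 than the mean of the other Control libraries, with a median log2 difference of 0.76. The share of all tested genes higher in Control M01 was not counted, for this list or for those below. The log2 ratio of the summed C1q CPM to Csf1r CPM was 2.35 in Control M01, whereas its highest value was 0.24 in Dehydrated libraries, 0.33 in Rehydrated libraries and 0.00 in the other Control libraries. Within the C1q genes the proportions were ordinary: log2 C1qa over C1qc was 0.58 in Control M01, inside the range of 0.42 to 1.13 of the other Control libraries.

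Other transcripts also deviated in Control M01, in both directions. All 12 tested genes of an antigen presentation list were higher there than the mean of the other Control libraries, with a median log2 difference of 3.68, and the summed level of the 13 listed genes found was 1382 CPM, against 105.5 to 183.0 CPM. Psmb9 and Psmb8, immunoproteasome subunits, were at 23.1 and 32.5 CPM, against 0.600 ± 0.410 and 1.55 ± 0.837 CPM in the other Control libraries. Psmb9 passed the filter on low counts only with Control M01 in, and 11 genes of the list were tested without it. Both were named for a small p in Dehydrated against Control, which uses Control M01. The edgeR unadjusted p of Psmb8 was 0.0146 with that library and 0.357 without it. Tap2, named by the same rule, was at 91.2 CPM, against 17.3 ± 3.19 CPM. Its edgeR unadjusted p was 0.00868 with that library and 0.0348 without it (adjusted p 0.620 and 0.841). Their levels are thus no separate support. Of 19 tested complement genes other than the C1q genes, 13 were higher in Control M01, with a median log2 difference of 0.87. Without the share of all genes, a count such as 13 of 19 says little. For scale, 57.8% of all tested genes lay below the 0.16 of Csf1r and 86.9% below the 0.77 of Cx3cr1. C2, a protease of the classical pathway, was at 38.6 CPM, against 4.64 ± 1.82 CPM. It was named by the same rule, with an edgeR unadjusted p of 0.0597 with Control M01 and 0.591 without it. Of 15 tested inflammatory response genes, 12 were higher there (median log2 difference 1.05), and of 11 proliferation genes 9 were (0.53). Of 10 astrocyte genes 4 were higher, with a median of -0.48, and of 10 neuronal genes 6 were, with a median of 0.13. Gene length moved with the library as well. The median log2 deviation of Control M01 was 0.35 for genes of at least 1000 and under 2000 exon bases, -0.31 for those of at least 3000 and under 5000 bases and -0.77 for those of 5000 bases or more. In the other Control libraries these medians lay between -0.09 and 0.11 in every length class. The C1q genes and Aif1 have 764 to 1832 exon bases and the other 5 genes 2184 to 4518. The C1q and Aif1 deviations, at 2.23 to 2.90 on the log2 scale, were above the upper quartile of their length class, which was 0.68 to 0.83. Cx3cr1 and Tmem119, at 0.77 and 0.65, were also above theirs, which was 0.39. Itgam and Csf1r, at 0.45 and 0.16, were above theirs of 0.07. P2ry12, at 0.30, was below its 0.39. The part that RNA quality, length or another cell type played in this library was not tested.

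**Figure D1:**
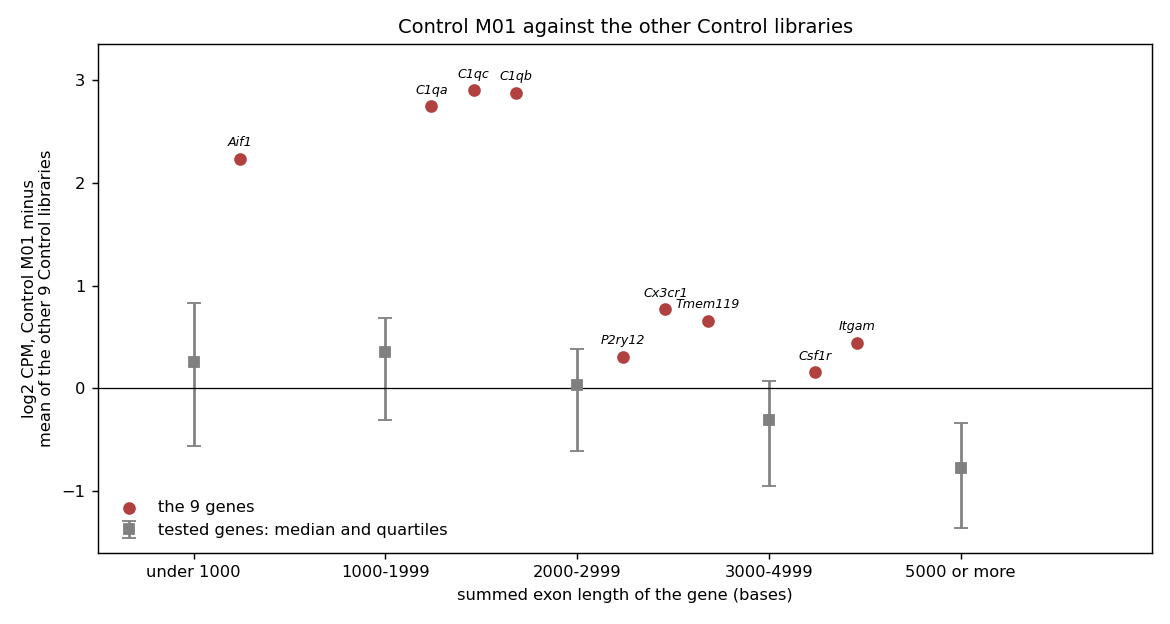
Deviation of Control M01 from the mean of the other 9 Control libraries (vertical axis, log2 CPM) by summed exon length of the gene in bases (horizontal axis, 5 classes). Grey squares with bars are the median and quartiles of the tested genes and red points are the 9 genes, set side by side within their class for legibility; C1qa, C1qb, C1qc and Aif1 lie at 2.23 to 2.90 and the other 5 genes at 0.16 to 0.77.

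Per length, C1qa and Csf1r led and Itgam and Tmem119 were lowest in each group. Median CPM per kilobase of exon of C1qa was 21.1 in Dehydrated, 21.5 in Rehydrated and 19.7 in Control libraries. Csf1r followed with 15.1 in Dehydrated, 16.6 in Rehydrated and 15.97 in Control libraries. C1qc and Aif1 came next and did not separate: C1qc was above Aif1 in 4 of 10 Dehydrated, 4 of 9 Rehydrated and 5 of 10 Control libraries. C1qb and P2ry12 also traded places, with C1qb the higher in 5 of 10 Dehydrated and 7 of 10 Control libraries and P2ry12 the higher in 6 of 9 Rehydrated libraries. Cx3cr1 was above Itgam in 10 of 10 Dehydrated, 7 of 9 Rehydrated and 9 of 10 Control libraries. Tmem119 closed the order at 2.48 in Dehydrated, 2.18 in Rehydrated and 2.81 in Control libraries. Without Control M01 the order of the Control medians was the same, with 17.4 for C1qa, 15.7 for Csf1r and 2.52 for Tmem119, and C1qc was above Aif1 in 4 of 9, C1qb above P2ry12 in 6 of 9 and Cx3cr1 above Itgam in 8 of 9 libraries.

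No gene of the 9 was called in any treatment comparison. With the quasi-likelihood test of edgeR and Benjamini-Hochberg adjusted p under 0.05, 0 of 9 were called in Dehydrated against Control, where 0.125% of 17558 genes were. In Rehydrated against Control, edgeR called 0 of 9, where 0% of genes were called, and in Rehydrated against Dehydrated 0 of 9, where 0.0228% were. Without Control M01 edgeR called 0 of 9 in each as well, where 0.0969%, 0% and 0.0228% of genes were called in the same order. DESeq2 on all libraries also called 0 of the 9 in each, where it called 0.172%, 0.0627% and 0.0627% of genes, and so did the authors' deposited tables, where 0.262% and 0.0227% of 17583 genes passed in Dehydrated and Rehydrated against Control. At an unadjusted p under 0.05, edgeR picked out 0 of 9 in Dehydrated against Control (6.37% of all genes), 1 of 9 in Rehydrated against Control (7.48%) and 0 of 9 in Rehydrated against Dehydrated (3.88%). Without Control M01 these were 1 of 9 in Dehydrated against Control (5.74%) and 2 of 9 in Rehydrated against Control (7.97%).

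**Figure D2:**
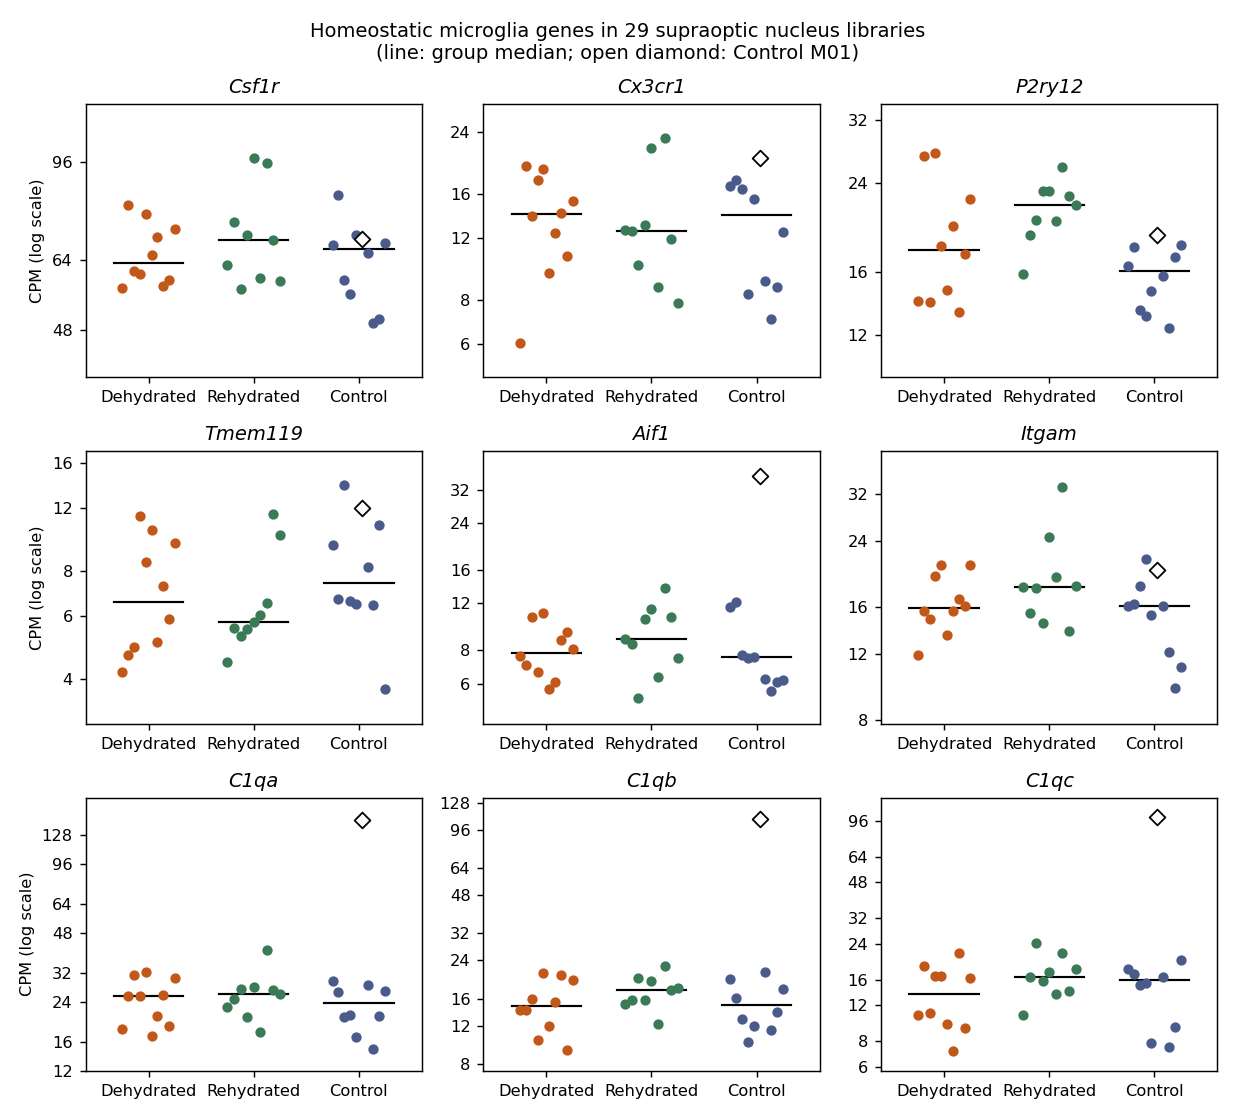
Level of each of the 9 genes in every library (CPM, log2-spaced vertical axis) in the Dehydrated, Rehydrated and Control groups. Each point is 1 library, lines are group medians and the open diamond is Control M01, which lies above every other library for Aif1, C1qa, C1qb and C1qc; the groups overlap for all 9 genes.

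Among the receptors, Csf1r binds the growth factors Csf1 and Il34. It had a lowest, median and highest level of 57.2, 63.3 and 80.5 CPM in Dehydrated libraries, 56.9, 69.6 and 97.6 CPM in Rehydrated libraries and 49.5, 67.1 and 83.6 CPM in Control libraries. Rehydrated M01 and Rehydrated M05 stood above every Control library, Control M04 was lowest, and the other ranges overlapped. The log2 difference from Control was 0.05 ± 0.11 (SE) in Dehydrated and 0.16 ± 0.11 in Rehydrated libraries, with edgeR adjusted p of 0.921 and 0.742. The 95% intervals of these log2 differences reached from -0.17 to 0.26 and from -0.06 to 0.38. Without Control M01 the log2 differences were 0.06 and 0.18.

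Cx3cr1, the fractalkine receptor, spread more widely. Its lowest, median and highest levels were 6.02, 13.98 and 19.2 CPM in Dehydrated libraries, 7.81, 12.5 and 23.1 CPM in Rehydrated libraries and 7.05, 13.96 and 20.2 CPM in Control libraries. Dehydrated F03 was the lowest of all libraries and Rehydrated M05 the highest, and the groups covered nearly the same range. The log2 difference from Control was 0.06 ± 0.22 (SE) in Dehydrated and 0.03 ± 0.23 in Rehydrated libraries, with edgeR adjusted p of 0.954 and 0.979. Without Control M01, these were 0.15 ± 0.22 and 0.13 ± 0.23.

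P2ry12, the ADP receptor that steers microglial processes toward injured cells and sites of ATP release, had the smallest p of the 9. Its lowest, median and highest levels were 15.8, 21.7 and 25.8 CPM in Rehydrated libraries, against 12.4, 16.04 and 18.9 CPM in Control libraries. In 8 of 9 Rehydrated libraries it stood above the median of all Control libraries and also above 18.1 CPM, the highest Control level other than that of Control M01; Rehydrated F03 was the exception. The log2 difference was 0.43 ± 0.13 (SE), with a 95% interval of 0.16 to 0.70, an unadjusted p of 0.00259 and an edgeR adjusted p of 0.505. Without Control M01 it was 0.47 ± 0.13, with an edgeR adjusted p of 0.382. In the authors' deposited table it was 0.47 ± 0.13 (SE) with an adjusted p of 0.143. By sex it was 0.53 ± 0.18 in male and 0.31 ± 0.19 in female libraries, and the difference between the sexes was 0.23 ± 0.27 (edgeR adjusted p 0.889).

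Dehydrated libraries overlapped both other groups in P2ry12. Their lowest, median and highest levels were 13.3, 17.7 and 27.5 CPM, and 4 of 10 stood above the highest Control library other than Control M01. Dehydrated F04 and Dehydrated F06, at 27.2 and 27.5 CPM, were the highest of all 29 libraries. The log2 difference from Control was 0.26 ± 0.13 (SE), with an unadjusted p of 0.0524 and an edgeR adjusted p of 0.774, and 0.29 ± 0.13 without Control M01. Between Rehydrated and Dehydrated libraries it was 0.17 ± 0.13 (SE; 95% interval -0.10 to 0.44). Med12l, the gene on the opposite strand around P2ry12, averaged 48.3 ± 4.98 CPM in Rehydrated (SD, n = 9) and 46.4 ± 15.5 CPM in Control libraries (n = 10), a log2 difference of 0.07 ± 0.19 (SE), and -0.07 ± 0.08 without Control M01, where it stood at 6.65 CPM.

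Tmem119, a transmembrane protein used to tell microglia from other macrophages, was the least abundant per length. It had 4.18, 6.56 and 11.4 CPM (lowest, median and highest) in Dehydrated libraries, 4.47, 5.77 and 11.6 CPM in Rehydrated libraries and 3.75, 7.44 and 13.9 CPM in Control libraries. Control M06 was the lowest and Control F03 the highest of all, so that the other groups lay within the Control range. The log2 difference from Control was -0.20 ± 0.22 (SE) in Dehydrated and -0.33 ± 0.23 in Rehydrated libraries, with edgeR adjusted p of 0.851 and 0.742. Without Control M01 these were -0.14 and -0.27.

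Aif1 encodes Iba1, the calcium-binding protein by which microglia are commonly stained. It had 5.72, 7.84 and 11.0 CPM in Dehydrated libraries, 5.28, 8.80 and 13.7 CPM in Rehydrated libraries and 5.62, 7.52 and 36.03 CPM in Control libraries (lowest, median and highest). The highest Control level was 12.2 CPM once Control M01 was left out, and the 3 groups then overlapped over most of their range. The log2 difference from Control was -0.35 ± 0.27 (SE) in Dehydrated and -0.21 ± 0.27 in Rehydrated libraries, and the sign turned without Control M01, to 0.05 ± 0.17 and 0.25 ± 0.18.

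Itgam is the alpha chain of complement receptor 3, through which microglia bind complement-tagged material. Its lowest, median and highest levels were 11.9, 15.9 and 20.8 CPM in Dehydrated libraries, 13.8, 18.1 and 33.5 CPM in Rehydrated libraries and 9.74, 16.1 and 21.6 CPM in Control libraries. Rehydrated M05 and Rehydrated M01, at 33.5 and 24.7 CPM, stood above every other library, while the rest of the group overlapped with Control. The log2 difference was 0.09 ± 0.15 (SE) in Dehydrated and 0.30 ± 0.15 in Rehydrated against Control, with an unadjusted p of 0.0578 and an edgeR adjusted p of 0.675 for the Rehydrated one. Without Control M01 the Rehydrated difference was 0.34 ± 0.16, with an unadjusted p of 0.0337 and an edgeR adjusted p of 0.587. Without Rehydrated M05 it was 0.18.

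The C1q molecule is built from the products of C1qa, C1qb and C1qc. C1qa had 16.98, 25.4 and 32.2 CPM in Dehydrated libraries, 17.7, 25.98 and 40.4 CPM in Rehydrated libraries and 14.97, 23.8 and 149.6 CPM in Control libraries (lowest, median and highest). Rehydrated M05 stood alone in its group at 40.4 CPM, the next library having 27.9 CPM, and otherwise the groups overlapped once Control M01 was set aside. C1qb had 9.30, 14.9 and 21.1 CPM in Dehydrated libraries, 12.3, 17.6 and 22.6 CPM in Rehydrated libraries and 10.2, 14.98 and 108.0 CPM in Control libraries. In 8 of 9 Rehydrated libraries C1qb was above the Control median. C1qc had 7.14, 13.7 and 21.6 CPM in Dehydrated libraries, 10.8, 16.6 and 24.4 CPM in Rehydrated libraries and 7.51, 15.97 and 100.2 CPM in Control libraries. Its medians were thus closer to each other than the libraries of any 1 group.

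Except for C1qc in Dehydrated against Control, the C1q differences changed sign when Control M01 was left out. In Dehydrated against Control, the log2 differences were -0.41 ± 0.30 for C1qa, -0.52 ± 0.31 for C1qb and -0.59 ± 0.35 for C1qc (SE), with edgeR adjusted p of 0.807, 0.792 and 0.792. Without Control M01 they were 0.11 ± 0.15, 0.03 ± 0.15 and -0.03 ± 0.21. In Rehydrated against Control, they were -0.40 ± 0.30, -0.41 ± 0.31 and -0.35 ± 0.35 with all libraries, and 0.19 ± 0.15, 0.20 ± 0.15 and 0.27 ± 0.21 without Control M01. In a fit with a block for the replicate code in place of sex, these Rehydrated differences also turned, to 0.0188, 0.0729 and 0.11. There, a library whose code occurs only once adds nothing to the difference. This fit is thus no separate support for the turn. The pooled SD of log2 CPM within groups was 0.61, 0.64 and 0.71 for C1qa, C1qb and C1qc with Control M01 and 0.34, 0.35 and 0.48 without it. For Csf1r it was 0.24 either way.

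Over the 9 genes, 4 differences were above 0 in Dehydrated against Control and the median log2 difference was -0.20; over all tested genes 49.2% were above 0. In Rehydrated against Control, 4 of 9 were above 0 with a median of -0.21, against 50.8% of all genes. Without Control M01, 7 of 9 were above 0 in Dehydrated against Control (median 0.06; 50.9% of all genes) and 8 of 9 in Rehydrated against Control (median 0.20; 52.2% of all genes). The median over all genes lay within 0.01 of 0 on the log2 scale in each of these. Both comparisons share the Control libraries. The Rehydrated against Dehydrated comparison does not use Control in its difference, and there 7 of 9 were above 0 (51.4% of all genes), from -0.14 for Tmem119 to 0.23 for C1qc, with unadjusted p of at least 0.177. With Control M01 left out of the fit, this range was -0.13 for Tmem119 to 0.30 for C1qc. Most of the 9 genes varied together between libraries, so counts of genes above 0 are not counts of independent results.

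**Figure D3:**
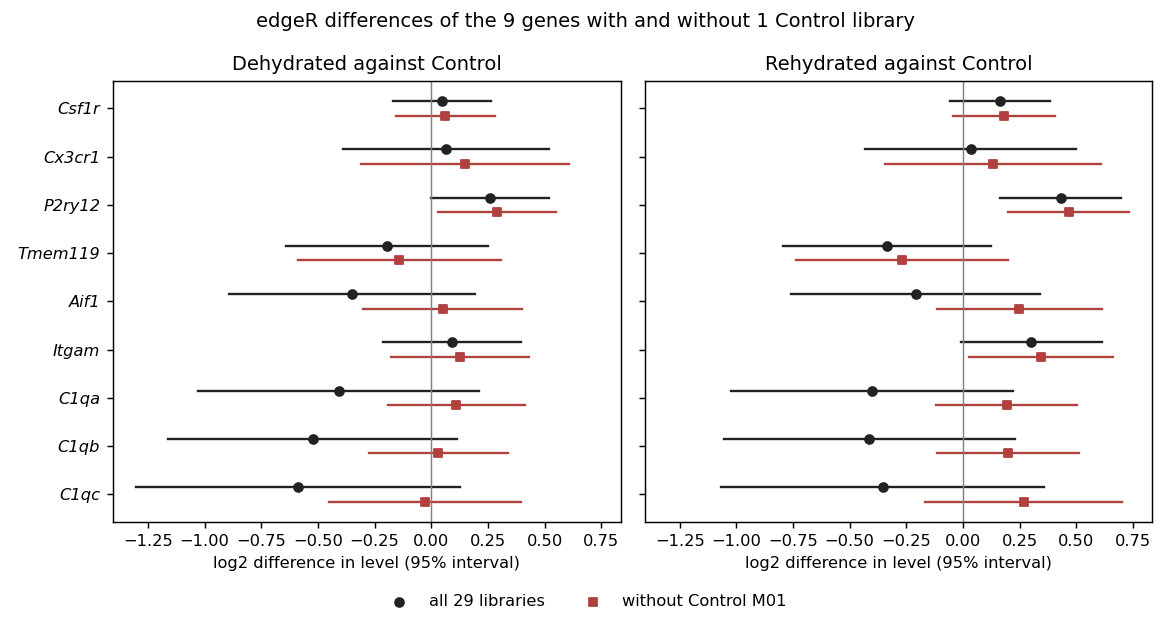
Log2 difference in level of the 9 genes (points) with 95% interval (lines) in Dehydrated and Rehydrated against Control, from edgeR with all 29 libraries (black) and without Control M01 (red). C1qa, C1qb, C1qc and Aif1 move to the right without Control M01, P2ry12 stays at 0.26 to 0.29 and 0.43 to 0.47, and no gene passed the adjusted threshold.

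The high and low libraries were much the same for several of the genes. The sum of all 9 had a lowest, median and highest value of 144.0, 181.6 and 224.5 CPM in Dehydrated libraries, 163.7, 190.0 and 282.8 CPM in Rehydrated libraries and 127.1, 181.0 and 535.1 CPM in Control libraries, or 213.9 CPM at most without Control M01. Rehydrated M05 and Rehydrated M01 led the Rehydrated group, and Control M04 and Dehydrated F03 were lowest in theirs. Rehydrated M05 also had the highest summed level of its group for border macrophage genes (82.4 CPM; group median 52.8), monocyte and granulocyte genes (380.1 CPM; 142.3), oligodendrocyte genes (8151 CPM; 3107) and endothelial genes (353.2 CPM; 230.7). Their part in the levels of the 9 genes in this library was not tested.

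Across the 28 libraries without Control M01, 34 of 36 pairs of the 9 genes correlated positively on log2 CPM, with a median Pearson r of 0.44. By permutation tests with 100000 resamples, adjusted over the 36 pairs, 19 pairs passed 0.05 by Pearson's r and 10 by Spearman's rho. With Control M01, 15 passed by either measure, and the median r was 0.40. Within groups the median r of the 36 pairs was 0.36 in Dehydrated, 0.52 in Rehydrated and 0.38 in Control libraries without Control M01; with it the Control value was 0.51.

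The closest pair outside C1q was Csf1r and Cx3cr1. Over the 28 libraries r was 0.76 and rho 0.74, each with a permutation p of 1e-05, the smallest that 100000 resamples can give, and an adjusted p of 0.00018. With the 2 libraries farthest from the Csf1r median left out, r was 0.68. Within groups it was 0.59 in Dehydrated, 0.94 in Rehydrated and 0.76 in Control libraries. Among the C1q genes, r was 0.77 for C1qa with C1qb, 0.71 for C1qa with C1qc and 0.60 for C1qb with C1qc, with adjusted permutation p of 0.00018, 0.00048 and 0.00483. Their rho was 0.83, 0.69 and 0.68, with adjusted permutation p of 0.00018, 0.00081 and 0.00081, and r without the 2 farthest libraries was 0.74, 0.64 and 0.62. With Control M01 in, r was 0.93, 0.88 and 0.84.

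Tmem119 did not clearly vary with the rest. Its 8 pairs had r between -0.16 and 0.09 over the 28 libraries, and 0 of them passed by a permutation test of either coefficient. P2ry12 went with Csf1r (r 0.56, rho 0.55, adjusted permutation p 0.00871 and 0.0139; r 0.45 without the 2 farthest libraries), and with Aif1 its r was 0.19 and its rho 0.16 (adjusted permutation p 0.418 and 0.530). Itgam with Csf1r had r of 0.52 (adjusted permutation p 0.0142) but rho of 0.22 (0.341), and r was 0.21 with the 2 farthest libraries left out, so that this relation rested on those libraries.

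**Figure D4:**
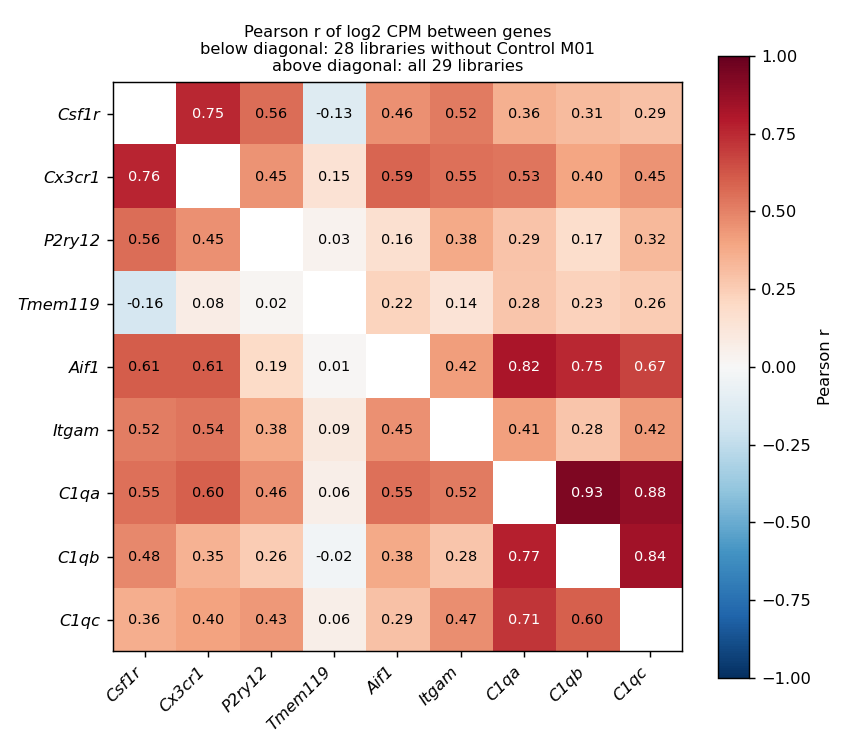
Pearson r of log2 CPM for each pair of the 9 genes, below the diagonal over 28 libraries without Control M01 and above it over all 29 libraries (colour scale -1 to 1). The Tmem119 row and column stay near 0 below the diagonal (-0.16 to 0.09), and pairs among C1qa, C1qb, C1qc and Aif1 are higher above the diagonal than below it.

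The genes most like the 9 were sought by Pearson r between their log2 CPM and the mean standardised level of the 9, over the 28 libraries without Control M01. Among 12319 named candidates the median r was 0.00. Among the 10 highest were Laptm5, a lysosomal membrane protein of blood and immune cells, at 0.85, the actin-bundling protein Lcp1 at 0.74 and the kinase subunit Pik3cg at 0.74. Rubcnl (0.71), Mecom (0.71), the lysophospholipid receptor Gpr34 (0.71), the transcription factor Irf8 (0.70), the transporter Abcc4 (0.66) and the kinase Lyn (0.64) were also among them. Being picked as the highest, they carry no p; their rho ran from 0.46 for Lyn to 0.84 for Laptm5, and r without the 2 farthest libraries from 0.40 to 0.78. The 9 genes themselves had r of 0.62 to 0.87 with this mean, of which each is a part, except Tmem119 at 0.19. With Control M01 in, Laptm5 and Lcp1 stayed among the 10 highest, and Abcc4 had r of 0.12.

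Between male and female libraries, edgeR called 0 of 9 genes, where 0.0342% of all genes were called, 0 of 9 had an unadjusted p under 0.05 (3.87% of all genes), and DESeq2 called 0 of 9 (0.0744% of all genes). The difference closest to the threshold was C1qb, with a lowest, median and highest level of 9.30, 17.8 and 108.0 CPM in 14 male libraries and 10.2, 15.1 and 21.1 CPM in 15 female libraries. The male libraries Control M01, Rehydrated M05 and Control M03 stood above, and Dehydrated M08 below, every female library. Its log2 difference, male over female, was 0.52 ± 0.26 (SE; unadjusted p 0.0539, edgeR adjusted p 0.993), and 0.14 ± 0.12 without Control M01.

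The response to treatment was also compared between the sexes. For Dehydrated against Control, the male response minus the female one was -1.11 ± 0.58 for C1qa, -1.09 ± 0.59 for C1qb and -1.26 ± 0.66 for C1qc (log2 ± SE), with an edgeR adjusted p of 0.817 each. Without Control M01 these were -0.04 ± 0.30, 0.00 ± 0.31 and -0.16 ± 0.44. For Rehydrated against Control they were -0.84 ± 0.58, -1.13 ± 0.60 and -1.21 ± 0.66, and without Control M01 0.23 ± 0.31, -0.04 ± 0.32 and -0.12 ± 0.44. edgeR called 0 of 9 genes in either, where 0% of all genes were called, and 0 of 9 had an unadjusted p under 0.05 (6.05% and 6.18% of all genes). Without Control M01 the response of Aif1 to rehydration was 0.75 ± 0.34 higher in males (unadjusted p 0.0363, edgeR adjusted p 0.868).

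Of 20 listed ligands and partners 19 were tested and 0 were called by edgeR in any treatment comparison, where at most 0.125% of all genes were. Of the 19, 0 had an unadjusted p under 0.05 in Dehydrated against Control (6.37% of all genes) and 1 in Rehydrated against Control (7.48%). Without Control M01, 2 of 19 did in each (5.74% and 7.97% of all genes). The ligands of Csf1r averaged 18.1 ± 4.05 CPM in Dehydrated, 18.4 ± 4.64 CPM in Rehydrated and 17.8 ± 2.603 CPM in Control libraries for Csf1 (SD, n = 10, 9 and 10) and 42.4 ± 4.50, 41.9 ± 4.85 and 42.5 ± 8.56 CPM in the same groups for Il34. Cx3cl1, which encodes fractalkine, averaged 222.7 ± 19.4 CPM in Dehydrated, 232.6 ± 20.5 CPM in Rehydrated and 230.1 ± 21.8 CPM in Control libraries. Entpd1, an enzyme that breaks down ATP and ADP, was the gene with the low p: it averaged 19.1 ± 2.47 CPM in Rehydrated and 15.6 ± 1.58 CPM in Control libraries, a log2 difference of 0.29 ± 0.09 (SE) with an unadjusted p of 0.00411 and an edgeR adjusted p of 0.553. Itgb2, the beta chain that pairs with Itgam, averaged 21.7 ± 3.22 CPM in Rehydrated and 21.7 ± 12.4 CPM in Control libraries, and 17.96 ± 3.74 CPM in Control without Control M01, where it was at 55.6 CPM. The smallest p in Dehydrated against Control were those of Cd47 at 0.19 ± 0.09, the nucleotide receptor P2ry6 at 0.80 ± 0.41 and the receptor Tgfbr2 at -0.20 ± 0.11 (log2 ± SE; edgeR adjusted p 0.774, 0.775 and 0.789). Without Control M01 they were 0.12, 0.68 and -0.25, with edgeR adjusted p of 0.849, 0.920 and 0.769.

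Of 30 other homeostatic microglia genes listed, 27 were tested and 0 were called by edgeR in any treatment comparison. At most 0.125% of all genes were called in any of these, so 0 calls in the short lists of this paragraph says little. The median log2 difference was -0.06 in Dehydrated against Control (9 of 27 above 0) and -0.04 in Rehydrated against Control (11 of 27), and without Control M01 0.04 (16 of 27) and 0.11 (18 of 27). Gpr34 had the smallest p: it averaged 14.9 ± 2.52 CPM in Rehydrated, 13.4 ± 2.85 CPM in Dehydrated and 9.80 ± 3.43 CPM in Control libraries (SD). Its log2 difference in Rehydrated against Control was 0.63 ± 0.17 (SE), with an unadjusted p of 0.000763 and an edgeR adjusted p of 0.370. In Dehydrated against Control it was 0.45 ± 0.16 (edgeR adjusted p 0.633), followed by the protease Ctss at -0.66 ± 0.33 and the Fc receptor chain Fcer1g at -0.56 ± 0.30, which were -0.24 and -0.04 without Control M01. Of 10 tested myeloid transcription factors 0 were called, with a median log2 difference of 0.01 in Dehydrated and 0.00 in Rehydrated against Control, and 0.01 and 0.05 without Control M01. Elf1 had the smallest p of them in Dehydrated against Control, at -0.32 ± 0.11 (SE; edgeR adjusted p 0.587), followed by Irf8 at 0.28 ± 0.16 and Bhlhe41 at 0.21 ± 0.14. Of 19 tested complement genes other than the 3 C1q genes 0 were called, with medians of -0.09 in Dehydrated (7 of 19 above 0) and -0.08 in Rehydrated against Control (6 of 19). Both medians turned sign without Control M01, to 0.08 (12 of 19) and 0.06 (13 of 19). The membrane regulators Cd46, at -0.28 ± 0.11, and Cd59, at 0.11 ± 0.04, had the smallest p of them in Dehydrated against Control (edgeR adjusted p 0.669 and 0.695).

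Of genes that mark other microglial states, 2 were called. Among 18 tested disease-associated and axon-tract microglia genes, Spp1 and Gpnmb rose in Dehydrated against Control, where edgeR called 0.125% of all genes. The list as a whole did not rise: 7 of the 18 were above 0 and 11 below, with a median log2 difference of -0.02. Without Control M01, 10 were above 0 and 8 below, with a median of 0.02. In Rehydrated against Control, 0 of 18 were called (0% of all genes). Spp1, the secreted protein osteopontin, averaged 563.3 ± 293.8 CPM in Dehydrated and 175.8 ± 44.6 CPM in Control libraries (SD, n = 10 each), a log2 difference of 1.69 ± 0.25 (SE; edgeR adjusted p 0.00304). Gpnmb, a transmembrane glycoprotein of phagocytes, averaged 11.6 ± 7.08 CPM in Dehydrated and 1.83 ± 1.41 CPM in Control libraries, a log2 difference of 2.64 ± 0.43 (edgeR adjusted p 0.00369). Spp1 fell in Rehydrated against Dehydrated, by 1.69 on the log2 scale (edgeR adjusted p 0.0052). Without Control M01 these log2 differences were 1.76 ± 0.27 for Spp1 and 2.69 ± 0.46 for Gpnmb in Dehydrated against Control and -1.68 for Spp1 in Rehydrated against Dehydrated (edgeR adjusted p 0.00428, 0.00849 and 0.0141). Fabp5, a fatty-acid-binding protein, came next in Dehydrated against Control at -0.29 ± 0.13 (edgeR adjusted p 0.747). Spp1 and Gpnmb are also expressed outside microglia, and their cell of origin was not tested.

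Markers of other cells showed no called gene either, except in magnocellular neurons. edgeR called 0 in any treatment comparison among 6 tested border macrophage genes, 5 monocyte and granulocyte genes, 3 lymphocyte genes, 12 antigen presentation genes, 15 inflammatory response genes, 11 proliferation genes, 10 astrocyte genes, 10 endothelial genes and 10 neuronal genes. At most 0.125% of all genes were called in any of these comparisons, so 0 in lists this short says little. The same count of 0 held for 3 red blood cell genes, whose level, summed over the 4 listed genes found, ran from 32.1 to 187.8 CPM in Dehydrated, 34.5 to 997.4 CPM in Rehydrated and 114.6 to 807.0 CPM in Control libraries. It held for 7 oligodendrocyte genes, whose median log2 difference was -0.33 in Dehydrated (0 of 7 above 0) and -0.45 in Rehydrated against Control (1 of 7 above 0). An edgeR unadjusted p under 0.05 was reached by 0 of the 7 in Dehydrated (6.37% of all genes) and 3 of the 7 in Rehydrated against Control (7.48%). Without Control M01 these were 0 (5.74%) and 4 (7.97%). At that threshold 9 of 12 antigen presentation genes passed in Dehydrated against Control, where all 12 were below 0. Without Control M01, 1 of 11 passed. In Rehydrated against Dehydrated (3.88% of all genes), 3 of 3 red blood cell genes passed, all above 0, and 4 of 11 proliferation genes. Of those 11 genes, 9 were above 0 and 2 below. The part of these lists in the levels of the 9 genes was not tested. Of 8 magnocellular genes, 3 rose in Dehydrated against Control, where 0.125% of all genes were called. These were Avp, Pdyn and Caprin2, with log2 differences of 1.81 ± 0.37, 1.13 ± 0.18 and 0.98 ± 0.18 (SE, edgeR adjusted p 0.0388, 0.00369 and 0.0109). Without Control M01 the differences were 1.84, 1.14 and 1.03, with edgeR adjusted p of 0.0879, 0.00764 and 0.0137.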

How the data were processed

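Per the file headers, the deposited table holds whole-number counts of read pairs for each gene; the authors used featureCounts 1.6.2 on the Ensembl annotation of mJacJac1, with no strand option. The submitters' processing notes list FastQC, featureCounts and DESeq2. For alignment no tool is named in the labels, notes or headers used here. The authors' deposited tables hold log2 fold changes, standard errors and p-values for 17583 genes; a DESeq2 fit of group and sex without Control M01 came within 5.06e-07 of their fold changes. Their 56 columns of per-library values were not used. Summed exon length came from the deposited count table.

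Differential expression was tested in R 4.3.3 by edgeR 4.0.16: filterByExpr, which kept 17558 genes (those removed held 0.126% of counts), TMM, and a robust quasi-likelihood fit of group and sex over 29 libraries, with p adjusted by Benjamini-Hochberg and called under 0.05. The sexes' responses were compared in a fit with 1 mean for each of the 6 pairings of group and sex. Log2 CPM used a prior count of 2. DESeq2 1.42.0, other size factors, filters and covariates, a replicate block and each library left out in turn were alternatives; DESeq2 without Control M01 was chosen after seeing the data. Correlations used Python 3.11.15, numpy 2.4.6 and pandas 2.3.3, and figures matplotlib 3.10.9. The pipeline was tested on simulated data. RefSeq placement needed an overlap of 0.5 of both spans or a share of 0.95 of the gene inside the RefSeq span; where both sources named a gene, the symbol was the same for 96.6% of 8787 genes. Sex labels differed from the name's letter in 3 libraries, and the label was used. Counts differed beyond sampling noise in all 126 pairs of replicates (chi-square per degree of freedom 8.52 to 152).

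The 9 genes and the lists were chosen with earlier results of these data known. Named genes were the 9, list members past the threshold, the 3 of smallest p in Dehydrated against Control in a list, and the 10 named, tested non-members at 1 log2 CPM or more on average that were most alike, of which 1 is not reported here; Csf1, Il34, Cx3cl1, Itgb2, Entpd1 and Med12l were added as partners or neighbours of a member after their values were seen, and lists of other cells are given as counts.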

Additional observations from a re-analysis of the deposited data

Results flagged for a closer look

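In 5 of 27 sets of 1 gene in 1 group, a library lay so far from the next that the gap, as a share of the group's whole range, passed Dixon's 95% critical value; chance alone gives about 1 in 20. Control M01 was that library in 4 of them. The share was 0.892 for C1qa (149.6 CPM, the next Control library having 29.5), 0.887 for C1qb (108.0 CPM; 21.2), 0.866 for C1qc (100.2 CPM; 19.9) and 0.784 for Aif1 (36.03 CPM; 12.2). In the Rehydrated group the share was 0.552 for C1qa in Rehydrated M05 (40.4 CPM, the next library having 27.9).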

How the results depend on the processing

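The count of the 9 genes called was 0 in all 174 combinations of comparison and alternative that were run. The P2ry12 log2 difference stayed above 0 in all 37 alternatives, at 0.18 to 0.31 in Dehydrated against Control and 0.39 to 0.48 in Rehydrated against Control, with adjusted p of 0.147 to 0.804 in the Rehydrated one. Replicate codes shared between groups gave no clear sign of pairing. Deviations of same-coded libraries correlated at -0.12 to 0.11 over 19 pairs (median 0.02), 2 of them over 0.1. Those of differently coded libraries correlated at -0.29 to 0.22 over 261 pairs (median 0.00), 16 of them over 0.1. Whether same-coded libraries shared a batch was not tested. With the replicate block, P2ry12 was at 0.25 in Dehydrated and 0.44 in Rehydrated against Control, while the direction turned for Aif1 in Dehydrated against Control (0.0278), for Aif1 (0.12), C1qa (0.0188), C1qb (0.0729) and C1qc (0.11) in Rehydrated against Control, and for Tmem119 in Rehydrated against Dehydrated (0.15). DESeq2 without Control M01, an alternative chosen after seeing the data, turned Aif1 (0.0488), C1qa (0.11) and C1qb (0.0297) in Dehydrated against Control, and Aif1 (0.25), C1qa (0.19), C1qb (0.20) and C1qc (0.27) in Rehydrated against Control. Over the fits that leave out 1 library each, the log2 difference in Dehydrated against Control ran from -0.00601 to 0.15 for Cx3cr1, -0.42 to 0.0497 for Aif1, -0.49 to 0.11 for C1qa and -0.62 to 0.0304 for C1qb. In Rehydrated against Control it ran from -0.10 to 0.13 for Cx3cr1, -0.29 to 0.25 for Aif1, -0.49 to 0.19 for C1qa, -0.50 to 0.20 for C1qb and -0.48 to 0.27 for C1qc. In Rehydrated against Dehydrated it ran from -0.15 to 0.0380 for Cx3cr1 and -0.0661 to 0.0815 for C1qa. The male minus female response ran from -1.31 to 0.00395 for C1qb in Dehydrated and -1.07 to 0.23 for C1qa in Rehydrated against Control. Leaving out Control M01 turned 9 of these directions; for the other changes the cause was not tested. Of the 10 genes most like the 9, 3 were shared with the list made with Control M01. Depth limits Tmem119 most, at a median count of 106 per library.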
